A study of Mus musculus with 43 samples.

Results

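*Cdkn1a* and 9 other genes grouped as targets of the transcription factor p53 (*Mdm2*, *Ccng1*, *Bax*, *Bbc3*, *Trp53inp1*, *Phlda3*, *Sesn1*, *Gadd45a* and *Gadd45b*) were examined in retinas with laser-induced choroidal neovascularization (CNV), to ask whether the other targets followed *Cdkn1a*. These 10 of the 54532 genes counted were picked by symbol. *Cdkn1a* was selected on its lower level under short-chain fatty acids (SCFA) in males at 14 days post lesion (dpl), and the others as genes commonly listed with p53 targets. Whether p53 acts on each of them in the retina was not tested. All 10 were among the 18197 genes that passed the filter on low counts.

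Male and female C57BL/6J mice, 9 weeks old, all received the laser lesion. Control animals drank unsupplemented water, and SCFA animals had 67.5 mM sodium acetate, 40 mM sodium propionate and 25 mM sodium butyrate in their drinking water from before the lesion until death (the labels' amounts in g/L rank propionate and butyrate the other way round). Retinas were collected at 3, 7 and 14 dpl, and each of the 43 libraries pooled 2 retinas from 2 animals. The 12 groups held 3 to 5 libraries each, and all of them share the lesion, since no retina without laser was analysed here.

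p53 is kept low in unstressed cells and accumulates after DNA damage and other stress, when it binds paired copies of a short DNA motif and switches on its target genes. The products of these targets halt the cell cycle, repair DNA, start apoptosis or feed back on p53 itself. *Cdkn1a* encodes p21, an inhibitor of cyclin-dependent kinases and the best known of them, but its promoter also answers to other signals, among them serum and growth factor pathways, glucocorticoids and butyrate. In the adult retina most cells are neurons that no longer divide.

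Library totals ran from 14826957 to 21507527 counts, with 17683615 in the median library. *Cdkn1a* had 74 to 324 counts per library, *Bbc3* 23 to 97, and the other 8 genes at least 80 in every library. Values are given as CPM, counts scaled by TMM to a common library size. In the count table, 31 columns cover the groups in turn before 12 more columns start over. These are called the first and the second run here, and mitochondrial transcripts took 5.19% to 16.6% of the counts in the first run and 2.65% to 4.87% in the second. Run was a covariate in every test unless stated.

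Markers of cones, bipolar cells, Müller glia, ganglion cells, microglia and endothelium were counted in all 43 libraries, as retina should show. In female SCFA 3 dpl replicate 2, the lens crystallins *Cryaa*, *Cryba1* and *Crygs* made up 10.1% of the counts, or 145600 CPM after scaling, against 415.9 CPM or less in the other libraries. Pigment epithelium markers reached 1168 CPM there. The library labelled female control 7 dpl replicate 2 had 16.4 CPM of the Y-linked *Ddx3y*, which was at 0 in the other libraries labelled female, beside 99.4 CPM of *Xist*, the lowest of the females. Results that rest on these 2 libraries are given with and without them.

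*Cdkn1a* (ENSMUSG00000023067) lies at chr17:29090976-29100727 on the plus strand of GRCm38. RefSeq promoter windows on GRCm38.p6, from 250 bases before to 50 after a transcription start, were found for 9 of the 10 genes (not for *Trp53inp1*) and searched for the p53 response element consensus without a spacer, 20 bases that read the same on both strands. The C and G that the consensus fixes in each copy had to match, and mismatches were counted at the other bases. Sites within 3 such mismatches were found for 4 genes. They are printed because they are the motif by which these genes are grouped, with the C and G that the consensus fixes in each copy in capitals:

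Cdkn1a, upstream start: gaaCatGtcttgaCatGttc

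Ccng1: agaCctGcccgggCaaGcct

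Bbc3: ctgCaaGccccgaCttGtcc

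Sesn1, downstream start: aagCttGtttttgCtgGcct

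The *Cdkn1a* site lies at chr17:29090928-29090947 on the plus strand, with its first base at position -51 from the upstream of 2 annotated starts, and the *Ccng1* site at chr11:40755462-40755481 on the minus strand, at -195. Each differs from the consensus at 1 base. Only 0.081% of the 27025 genes with a window have a site that close. The *Bbc3* site (chr7:16309486-16309505, plus strand, -97) and the *Sesn1* site (chr10:41887266-41887285, plus strand, -173) have 3 mismatches, which 1.632% of genes reach. Around the *Cdkn1a* site, the sequence at chr17:29090878-29090978 reads as follows, with the site in capitals:

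Cdkn1a: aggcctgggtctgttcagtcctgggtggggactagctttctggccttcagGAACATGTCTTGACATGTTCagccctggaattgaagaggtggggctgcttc

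A match is a sequence only. Whether p53 was bound was not measured, and counts per gene do not separate the upstream start of *Cdkn1a* from the main one at position 29093769.

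Levels between genes were compared per kilobase of exon. *Ccng1* had the highest median of the 10, at 25.6 CPM per kb, followed by *Gadd45a* (23.4), *Sesn1* (22.1), *Bax* (20.3) and *Mdm2* (12.5). Lower medians were those of *Gadd45b* (7.56 CPM per kb), *Phlda3* (5.40), *Trp53inp1* (4.55), *Cdkn1a* (2.52) and *Bbc3* (1.67). *Sesn1* was the steadiest of the 10, with a 1.31-fold range over the 43 libraries, whereas *Cdkn1a* ranged over 4.25-fold, from 4.12 to 17.5 CPM.

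*Cdkn1a* was lowest in male SCFA retinas at 3 dpl, with a mean of 4.90 ± 0.74 CPM (SD, n = 3), and highest in male controls at 14 dpl, with 15.3 ± 2.25 CPM (SD, n = 3). Ordered by their means, the groups between these ends were male SCFA 14 dpl, female SCFA 7, 14 and 3 dpl, male control 3 dpl, male SCFA 7 dpl, female control 14 and 7 dpl, male control 7 dpl and female control 3 dpl. Neighbours in this order always overlapped in their libraries. Of the 6 SCFA groups, 5 stood at the low end.

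**Figure D1:**
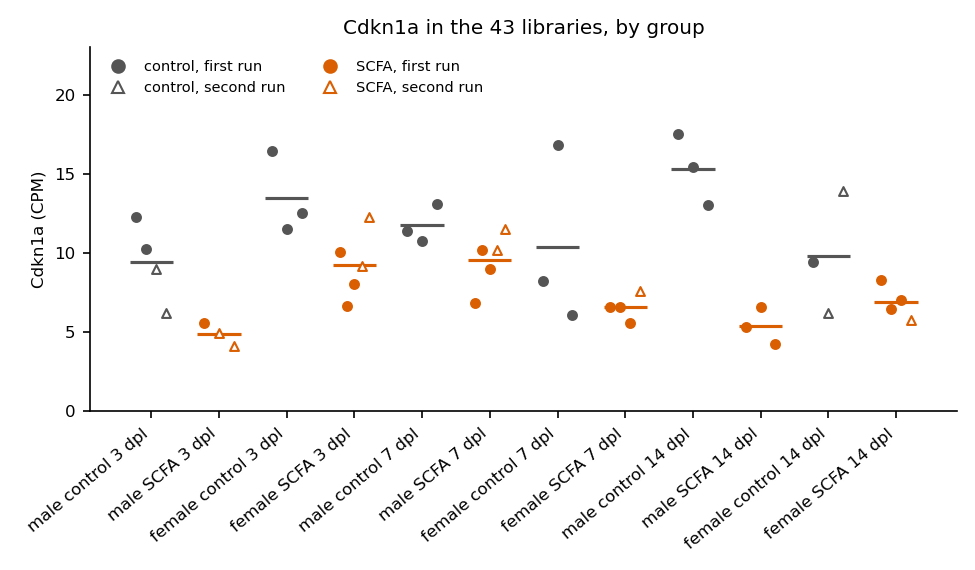
*Cdkn1a* in CPM (vertical axis) in each of the 43 libraries, by group. Filled circles are libraries of the first run of columns, open triangles of the second, and bars are group means. In every pair of groups of the same sex and day the SCFA mean lies below the control mean, and the pairs of males at 3 and 14 dpl do not overlap.

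In the males at 14 dpl on which *Cdkn1a* was selected, control libraries had 17.5, 15.4 and 13.02 CPM of *Cdkn1a* and SCFA libraries 5.30, 6.60 and 4.26. The groups did not overlap, and the log2 fold change of -1.51 (SE 0.29) is a description, since it chose the gene. Among the other targets in the same libraries, *Trp53inp1* differed by 0.56 (SE 0.18) and *Mdm2* by 0.22 (SE 0.13), both opposite in sign to *Cdkn1a*. *Phlda3* differed by -0.64 (SE 0.29), *Gadd45b* by -0.47 (SE 0.27) and *Sesn1* by -0.26 (SE 0.08), and the other 4 by between -0.09 and 0.08. Of the 10, 3 passed an adjusted p of 0.1 there (*Cdkn1a*, *Trp53inp1* and *Sesn1*), beside 7.13% of all genes. The pass of *Cdkn1a* was fixed by its selection on these libraries, so the count is a description and nothing is read from it.

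*Cdkn1a* was then followed in the libraries that did not choose it. At 3 dpl, male controls had 12.3, 10.2, 8.97 and 6.19 CPM and male SCFA libraries 5.60, 4.97 and 4.12. No SCFA library reached a control, but the log2 fold change of -0.94 (SE 0.27) missed the threshold, with edgeR's adjusted p = 0.28. DESeq2 called it, with an adjusted p of 0.0998. Female controls at 3 dpl had 16.5, 11.5 and 12.5 CPM and female SCFA libraries 10.1, 6.64, 8.04, 9.19 and 12.3, a log2 fold change of -0.55 (SE 0.25), with edgeR's adjusted p = 0.20. Of these SCFA libraries, 4 lay below every control.

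At 7 dpl, male controls had 11.4, 10.7 and 13.1 CPM of *Cdkn1a* and male SCFA libraries 6.84, 10.2, 8.99, 10.2 and 11.5. The groups overlapped in the last of these, and the log2 fold change was -0.31 (SE 0.25). With the male libraries of the study's own comparison, fitted without a term for the run, it was -0.14 (SE 0.14, edgeR's adjusted p = 0.574). Female controls at 7 dpl had 8.23, 16.8 and 6.05 CPM and female SCFA libraries 6.60, 6.58, 5.60 and 7.61. The value of 16.8 came from the library with Y-linked transcripts, and the log2 fold change of -0.66 (SE 0.26) was -0.14 without it. Without female control 7 dpl replicate 3 it was -0.93, with edgeR's adjusted p = 0.046. Female controls at 14 dpl had 9.42, 6.18 and 13.9 CPM and female SCFA libraries 8.28, 6.43, 7.01 and 5.79, a log2 fold change of -0.51 (SE 0.27) that was -0.19 without female control 14 dpl replicate 3. In none of these 5 comparisons alone did edgeR call *Cdkn1a* at an adjusted p under 0.1.

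The 5 comparisons were also averaged with equal weights, over 16 control and 21 SCFA libraries. *Cdkn1a* ran from 6.05 to 16.8 CPM in these controls (median 11.0) and from 4.12 to 12.3 CPM with SCFA (median 7.01). It fell by 0.59 on the log2 scale (SE 0.12, edgeR's adjusted p = 0.000496), to 0.662 of the control level. All 5 estimates were negative. The fall was -0.65 in the first run alone. Of male SCFA at 3 dpl and of female controls at 14 dpl, that run holds only replicate 1, so every average within it leans on single libraries. The averaged change of *Cdkn1a* was -0.47 without the lens-rich library and the one with Y-linked transcripts (edgeR's adjusted p = 0.00158). It was between -0.65 and -0.49 when each library was left out in turn, always past the threshold. The second run holds both treatments only for males at 3 dpl and females at 14 dpl, so no average could be made within it. In the average, 5190 of the 18197 genes passed, 28.5%, so a call by itself did not set *Cdkn1a* apart.

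The other targets did not follow *Cdkn1a* as a group. In the average of 5 comparisons, 5 of the 10 genes passed, beside the 28.5% of all genes. *Trp53inp1*, *Ccng1* and *Mdm2* were higher with SCFA, and *Bbc3* was lower, like *Cdkn1a*. DESeq2 also called 5. The median log2 fold change was -0.04 over the 10 genes and 0.00 over all genes.

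**Figure D2:**
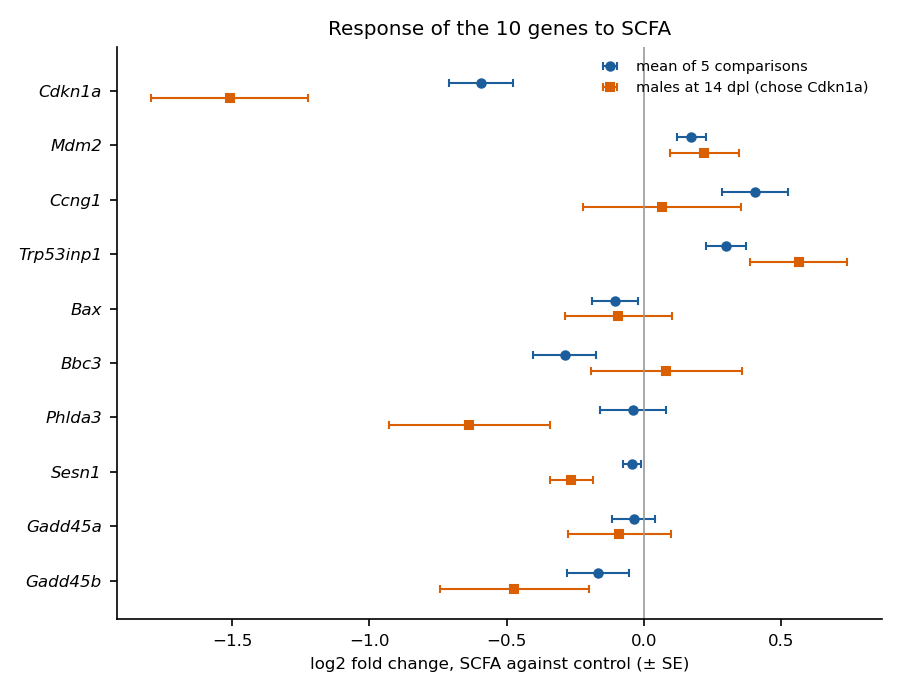
Log2 fold change of SCFA against control (horizontal axis, with SE) for the 10 genes. Circles are the mean of the 5 comparisons, and squares the males at 14 dpl by which *Cdkn1a* was chosen. *Cdkn1a* lies left of 0 in both, at -0.59 and -1.51, while *Mdm2*, *Ccng1* and *Trp53inp1* lie right of 0.

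*Mdm2* and *Ccng1* are the feedback genes of the set. *Mdm2* encodes the ubiquitin ligase that marks p53 for destruction, and *Ccng1* encodes cyclin G1, which helps to activate Mdm2 through a phosphatase. *Mdm2* ran from 49.99 to 79.1 CPM in the 16 controls (median 60.8) and from 56.7 to 96.3 CPM in the 21 SCFA libraries (median 64.6). It rose by a log2 fold change of 0.17 (SE 0.05, edgeR's adjusted p = 0.0163), a change of 1.13-fold within overlapping ranges. In the first run alone it was 0.16, with an adjusted p of 0.136 by edgeR, and without run as a covariate 0.13, with 0.173, so the call did not hold in either.

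Males at 7 dpl carried the largest difference in *Mdm2*. Controls had 63.9, 56.8 and 57.2 CPM and SCFA libraries 96.3, 69.3, 88.2, 63.2 and 59.6, a log2 fold change of 0.43 (SE 0.12, edgeR's adjusted p = 0.00871). The values of 96.3 and 88.2 came from SCFA replicates 1 and 3, in which mitochondrial transcripts took 15.3% and 16.6% of the counts, the highest 2 of all libraries. With the male libraries of the study's own comparison, which leave out both, the difference was 0.12 (adjusted p = 0.456). That fit called 4 other members, *Ccng1* higher (0.37, edgeR's adjusted p = 0.03) and *Bax* (-0.49), *Gadd45a* (-0.52) and *Gadd45b* (-0.87) lower. It has no term for the run, and of its male SCFA libraries, replicates 4 and 5 are of the second run, while its controls are of the first. The part of the mitochondrial levels in the *Mdm2* difference was not tested.

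*Ccng1* had between 68.8 and 92.6 CPM in the 16 controls (median 83.3) and between 83.9 and 418.9 CPM in the 21 SCFA libraries (median 95.8). It rose by a log2 fold change of 0.40 (SE 0.12, edgeR's adjusted p = 0.0147). Male groups at 7 dpl did not overlap, with controls at 74.2, 68.8 and 70.1 CPM and SCFA libraries at 97.0, 91.4, 100.5, 95.8 and 87.1. The log2 fold change there was 0.52 (SE 0.27), with edgeR's adjusted p = 0.19.

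In females at 3 dpl, *Ccng1* was at 89.8, 91.1 and 83.3 CPM in controls and at 107.1, 418.9, 107.2, 91.2 and 87.4 CPM with SCFA. The 418.9 CPM were those of the lens-rich library. The log2 fold change of 0.95 (SE 0.27, edgeR's adjusted p = 0.042) was 0.17 without that library (adjusted p = 0.382), and also missed the threshold without female control replicate 2 or 3, at 0.96 (0.11) and 0.91 (0.204). In the average of 5, leaving the lens-rich library out gave 0.23, with an adjusted p of 0.000154. Outside that library *Ccng1* did not exceed 124.6 CPM.

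**Figure D3:**
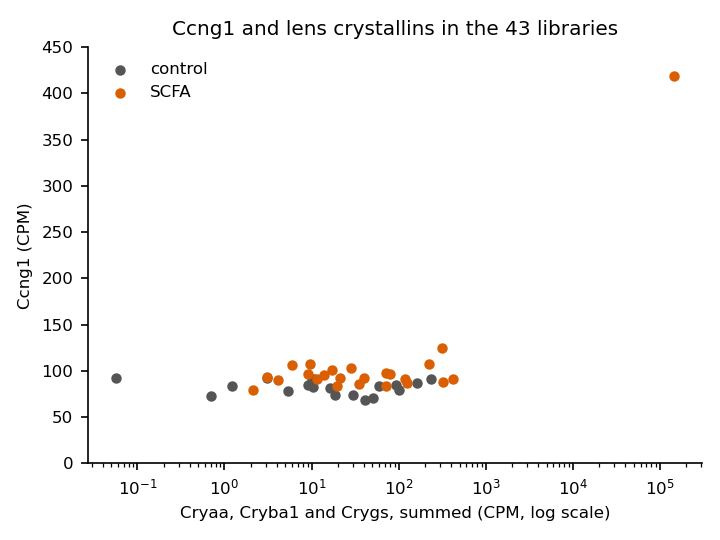
*Ccng1* in CPM (vertical axis) against the summed CPM of the lens crystallins *Cryaa*, *Cryba1* and *Crygs* (horizontal axis, log scale) in the 43 libraries. The lens-rich SCFA library stands alone at 418.9 CPM of *Ccng1*, and the other 42 lie between 68.8 and 124.6 CPM over the whole range of crystallin levels up to 415.9 CPM.

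*Trp53inp1* encodes a stress-induced protein that p53 switches on and that in turn promotes p53 activity and autophagy. It was the target whose pattern was most nearly the mirror image of *Cdkn1a*. At 3 dpl, male controls had 22.3, 21.1, 29.5 and 28.7 CPM and male SCFA libraries 30.7, 30.97 and 30.1, and female controls had 21.5, 28.4 and 25.6 CPM against 31.4, 30.6, 28.1, 28.4 and 29.4 with SCFA. At 7 dpl, male controls had 35.3, 20.4 and 20.7 CPM and male SCFA libraries 42.3, 39.7, 35.8, 33.6 and 27.3. Female controls at 7 dpl had 23.1, 19.1 and 27.5 CPM, and SCFA libraries 26.3, 28.5, 41.4 and 27.6. The male groups at 3 dpl did not overlap, and the other 3 pairs did. In these males, control replicates 3 and 4 (29.5 and 28.7 CPM) and SCFA replicates 2 and 3 (30.97 and 30.1 CPM) are of the second run.

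The females at 14 dpl showed no such difference in *Trp53inp1*, with 35.8, 33.3 and 27.7 CPM in controls and 32.9, 35.9, 32.4 and 30.8 with SCFA, a log2 fold change of 0.00 (SE 0.17). Averaged over the 5 comparisons, *Trp53inp1* rose by 0.30 (SE 0.07, edgeR's adjusted p = 0.00359), from a median of 26.6 CPM to one of 30.8. It was 0.35 in the first run alone (adjusted p = 0.0135) and 0.26 without the lens-rich library and the one with Y-linked transcripts (0.011). It passed whichever library was left out, at 0.26 to 0.36. In males at 7 dpl alone it rose by 0.52 (SE 0.16, edgeR's adjusted p = 0.0264). That call was lost without control replicate 2 (0.38, adjusted p = 0.193), without control replicate 3 (0.39, 0.2) and with the libraries of the study's own comparison (0.41, 0.233).

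**Figure D4:**
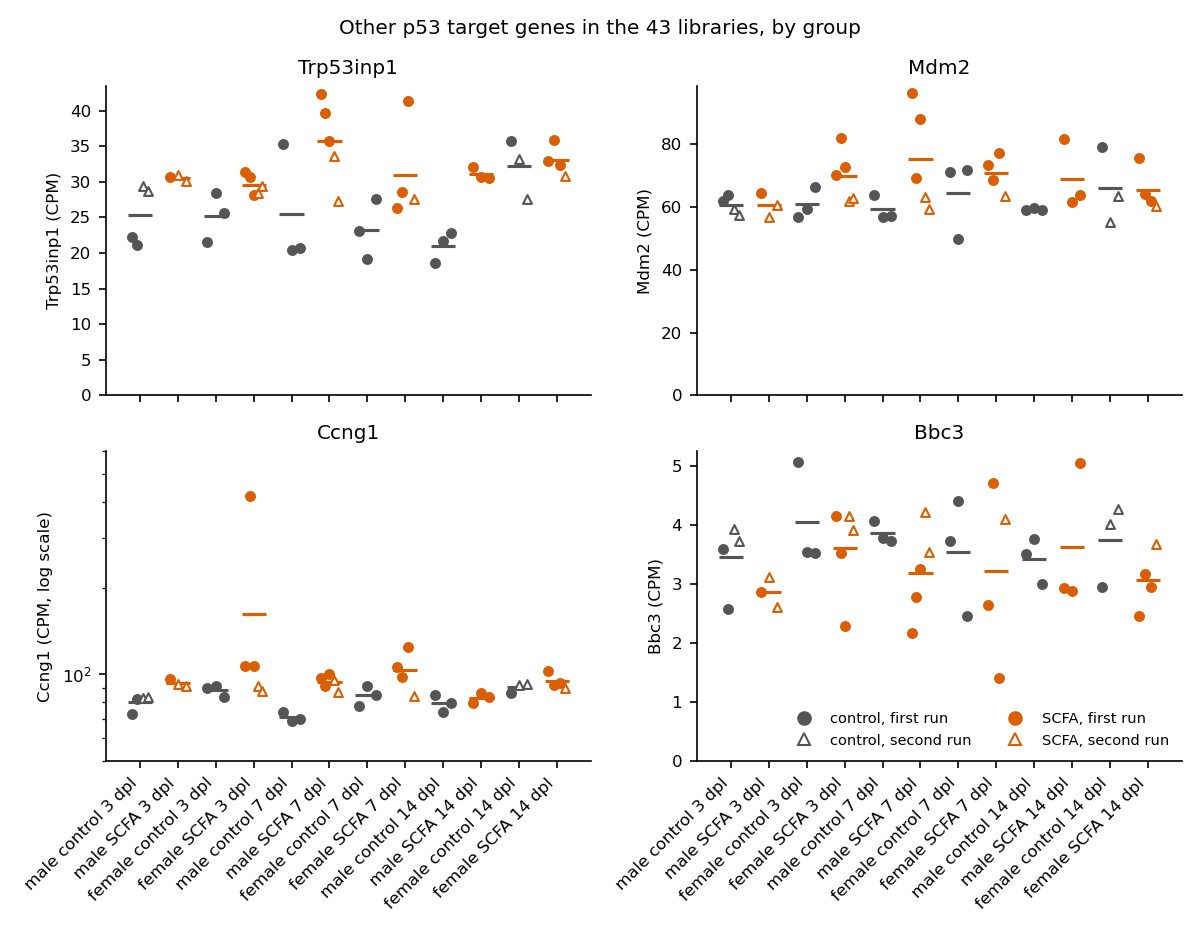
*Trp53inp1*, *Mdm2*, *Ccng1* (log scale) and *Bbc3* in CPM (vertical axes) in each of the 43 libraries, by group, with filled circles for the first run of columns, open triangles for the second and bars for group means. The SCFA means of *Trp53inp1* lie above the control means in each pair, by least in females at 14 dpl, and the single *Ccng1* value at 418.9 CPM is the lens-rich library.

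*Bax* and *Bbc3* are the apoptosis genes of the set. Their products, Bax and Puma, act at the mitochondrial outer membrane, where Puma frees Bax to form pores. *Bbc3* had 2.46 to 5.07 CPM in the 16 controls (median 3.73) and 1.40 to 4.72 CPM in the 21 SCFA libraries (median 3.17). It fell by 0.29 on the log2 scale (SE 0.11, edgeR's adjusted p = 0.068). Its adjusted p was the largest of the 5 calls, and the call was lost in the first run alone (-0.24, adjusted p = 0.374), without run as a covariate (-0.23, 0.244), without a filter on low counts (-0.29, 0.165), without the library with Y-linked transcripts (-0.26, 0.121), without that one and the lens-rich library (-0.27, 0.112), and without any of female control 3 dpl replicate 1, female control 14 dpl replicate 3, female SCFA 14 dpl replicate 1 and male SCFA 3 dpl replicate 3 (adjusted p between 0.101 and 0.137).

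*Bax* had a median of 37.1 CPM in the 16 controls (18.6 to 48.3) and of 30.0 CPM in the 21 SCFA libraries (24.4 to 43.2). Its averaged log2 fold change was -0.10 (SE 0.08), with edgeR's adjusted p = 0.40. *Bax* in male controls at 3 dpl was split by the run of columns. They had 45.9 and 48.3 CPM in the first run and 22.8 and 19.8 CPM in the second. Female controls at 14 dpl had 37.3 CPM of *Bax* in the first run (replicate 1) and 18.6 and 23.8 CPM in the second. Their *Gadd45a* was at 57.2 CPM against 24.8 and 35.8. In contrast, female SCFA libraries at 7 dpl had 36.0, 31.9 and 26.3 CPM of *Bax* in the first run and 33.95 CPM in the second. *Gadd45a* was split in the same male controls, with 44.8 and 46.7 CPM against 23.8 and 23.7, whereas *Mdm2* had 62.1 and 63.9 CPM against 59.5 and 57.5. *Cdkn1a* was also higher in the first run there, with 12.3 and 10.2 CPM against 8.97 and 6.19. *Trp53inp1* was lower, with 22.3 and 21.1 CPM against 29.5 and 28.7. What the run stands for is not given in the sources used here.

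*Sesn1* encodes a sestrin, which restrains the growth regulator mTORC1, and *Phlda3* a small protein that competes with the kinase Akt for membrane lipids. *Gadd45a* and *Gadd45b* encode stress sensors that bind p21 and PCNA and activate stress kinases. None of these 4 passed in the average of 5 comparisons. Their log2 fold changes there were -0.04 (SE 0.03) for *Sesn1*, -0.04 (SE 0.12) for *Phlda3*, -0.04 (SE 0.08) for *Gadd45a* and -0.17 (SE 0.11) for *Gadd45b*. The 95% interval of the *Cdkn1a* change was -0.82 to -0.36. That of *Gadd45b* (-0.39 to 0.06) overlapped it, while those of *Sesn1* (-0.11 to 0.02), *Phlda3* (-0.28 to 0.20) and *Gadd45a* (-0.19 to 0.12) did not. Differences between the genes were not tested.

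*Gadd45b* was lower with SCFA in males at 7 dpl, where controls had 21.7, 16.2 and 16.2 CPM and SCFA libraries 11.5, 11.8, 10.9, 9.18 and 8.48. The groups did not overlap, and the log2 fold change was -0.64 (SE 0.24, edgeR's adjusted p = 0.0702). It no longer passed without any of the 3 controls or without SCFA replicate 1 or 3, with values of -0.71 to -0.48 and adjusted p between 0.103 and 0.266. *Phlda3* was highest in the lens-rich library, at 20.6 CPM, as were *Gadd45a* at 75.3 and *Gadd45b* at 33.6 CPM. The highest values in the other 42 libraries were 15.6, 69.3 and 21.7 CPM.

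Calls were also counted comparison by comparison. In males at 3 dpl edgeR called 0 of the 10, beside 0.022% of all genes, with 1 at an unadjusted p under 0.05 and 1 called by DESeq2. In females at 3 dpl it called 1 (*Ccng1*), beside 8.11%. In males at 7 dpl it called 3 (*Mdm2* and *Trp53inp1* higher, *Gadd45b* lower), beside 22.2%. In females at 7 dpl it called 0, beside 0.643%, with 2 at an unadjusted p under 0.05 and 0 called by DESeq2, which gave no adjusted p for 3 of the 10 (*Cdkn1a*, *Bbc3* and *Phlda3*). In females at 14 dpl it called 0, beside 0%, with 0 at an unadjusted p under 0.05 and 0 called by DESeq2. Each share of all genes is the background for the count beside it.

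Whether SCFA acted differently in the sexes was tested by interaction terms. At 3 dpl edgeR called 0 of the 10 genes, beside 0% of all genes. *Phlda3* was the only member at an unadjusted p under 0.05, with a male minus female difference of -0.93 (SE 0.38, adjusted p = 0.32), and DESeq2 called 0. Female SCFA libraries behind that difference include the lens-rich one, at 20.6 CPM of *Phlda3* beside 9.73, 11.4, 7.11 and 9.89 CPM. The difference without it is not given here. At 7 dpl edgeR called 0, beside 0%, with 0 at an unadjusted p under 0.05 and 0 called by DESeq2. For *Cdkn1a* the difference was -0.39 (SE 0.37) at 3 dpl and 0.36 (SE 0.36) at 7 dpl. At 14 dpl, where the males chose the gene, it was -1.002 (SE 0.39), given as a description. Behind the 0.36 at 7 dpl were a male change of -0.31 and a female change of -0.66. That female change was -0.14 without the library with Y-linked transcripts, and the difference between the sexes without it is not given here.

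Between control males and females, 1 of these genes was called. *Trp53inp1* at 14 dpl was at 18.6, 21.7 and 22.8 CPM in male and at 35.8, 33.3 and 27.7 CPM in female controls. The groups did not overlap, and the log2 fold change of -0.67 (SE 0.19, edgeR's adjusted p = 0.0611) was the only call of the 10 there, beside 4.65% of all genes. At an unadjusted p under 0.05 were 3 of the 10, *Trp53inp1*, *Cdkn1a* (0.65, SE 0.29) and *Mdm2* (-0.31, SE 0.13). These male controls also chose *Cdkn1a*, so its difference there is a description. Of these female controls, replicate 1 belongs to the first run and the other 2 to the second, whereas the males all belong to the first. The call was lost without any single library except female control replicate 3 (adjusted p between 0.119 and 0.225), and in the first run alone (-0.76, 0.239). At 3 dpl edgeR called 0 of the 10, beside 0.0495%, with 1 (*Gadd45a*) at an unadjusted p under 0.05 and 0 by DESeq2. At 7 dpl it called 0, beside 0.0275%, with 0 at an unadjusted p under 0.05 and 0 by DESeq2.

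Time after the lesion moved none of these genes past the threshold in controls. From 3 to 7 dpl edgeR called 0 of the 10, beside 0% of all genes, and from 7 to 14 dpl 0, beside 0%. No member was at an unadjusted p under 0.05 in either, and DESeq2 called 0 in both. *Cdkn1a* changed by -0.02 (SE 0.19) and by 0.14 (SE 0.20), the second of which uses the male controls at 14 dpl that also chose the gene. None of the 10 changed by more than 0.23 on the log2 scale in either step.

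The genes were then compared library by library. The means of group and run were removed from log2 CPM (prior count 2), which also removes the differences that chose *Cdkn1a*, and the deviations of each gene over the 43 libraries were correlated with those of *Cdkn1a*. The SD of the *Cdkn1a* deviations was 0.30. *Trp53inp1* went against *Cdkn1a*, with Pearson's r = -0.54 and Spearman's coefficient -0.55 (n = 43, two-sided permutation p = 0.00193 and 0.00521 within group and run, not adjusted, among 9 such relations computed). Without the 2 libraries farthest from the median of *Cdkn1a*, female control 7 dpl replicates 2 and 3, r was -0.47. Of the 14929 genes compared, 97.2% had a higher r than *Trp53inp1*.

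*Mdm2* had r = -0.46 and Spearman's coefficient -0.42 (permutation p = 0.0979 and 0.0825), and r = -0.29 without the same 2 libraries. *Bbc3* and *Phlda3* had r = 0.32 and 0.31 (permutation p = 0.0422 and 0.103), which were 0.20 and 0.13 without them. For *Phlda3* the value depended on the libraries used, at 0.50 in the first run alone, 0.50 without the lens-rich library and 0.12 without the one with Y-linked transcripts. *Bax*, *Gadd45a*, *Gadd45b* and *Sesn1* lay between 0.04 and 0.20, and *Ccng1* at -0.28. With all 43 libraries no member was above 0.5, as 8.02% of all genes were. Without the library with Y-linked transcripts, r was -0.27 for *Mdm2* and -0.49 for *Trp53inp1*, and in the first run alone -0.62 and -0.50.

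**Figure D5:**
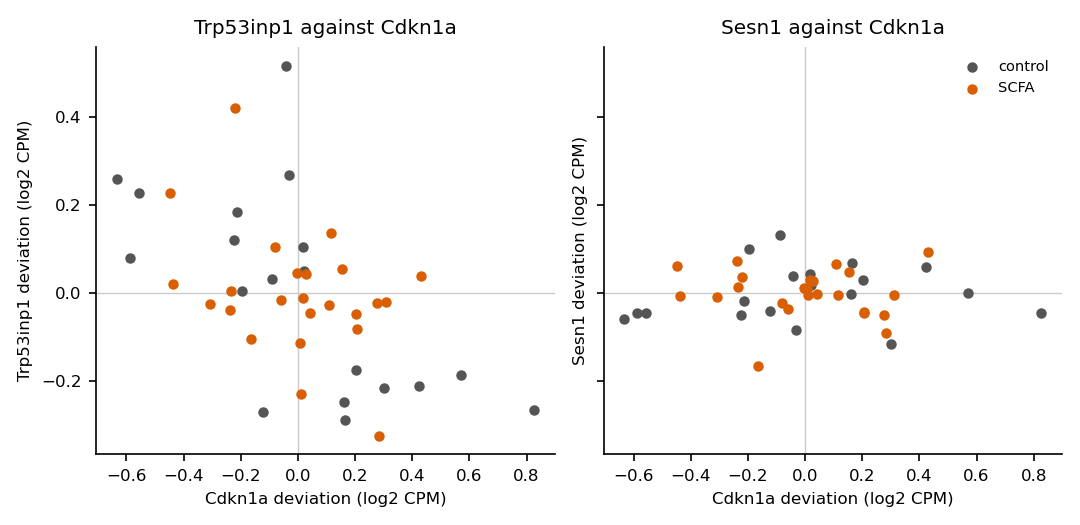
Deviations of *Trp53inp1* and of *Sesn1* from their group and run means (vertical axes, log2 CPM) against those of *Cdkn1a* (horizontal axis, log2 CPM) in the 43 libraries. *Trp53inp1* falls as *Cdkn1a* rises (r = -0.54), and *Sesn1* stays close to 0 throughout (r = 0.04).

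Over the 12 group means, other genes stood out. *Sesn1* had r = 0.90 with *Cdkn1a* there, *Gadd45b* 0.73, *Phlda3* 0.70, *Bbc3* 0.66 and *Trp53inp1* -0.65. These are descriptions, since the means share treatment, run and the males at 14 dpl. Without the male groups at 14 dpl, over 10 means, *Sesn1* had 0.87 and *Bbc3* 0.91. *Sesn1* thus went with *Cdkn1a* between groups, over a 1.21-fold range of group means, and not between libraries of a group. How many of all genes reach such an r over group means was not computed, so nothing particular to *Sesn1* is read from it.

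The genes whose deviations were most like those of *Cdkn1a* were on none of the p53 lists used here. By r over the 43 libraries they were *Ndufaf3* (0.87), an assembly factor of respiratory complex I, *Pef1* (0.79), a calcium-binding protein, *Cfl1* (0.78), the actin-severing cofilin, *Hnrnpa1* (0.78), a splicing factor, *Ier2* (0.77), an immediate early gene, *Rtn2* (0.76), a reticulon, and *Rrp7a* (0.76) and *Rrp1* (0.75), both of ribosome assembly. With the first run alone their r lay between 0.65 and 0.90. The median r was 0.11 over the 9 other members, 0.09 over 31 further p53 pathway genes, of which 1 was above 0.5, and 0.01 over all genes. It was 0.44 over 21 immediate early genes, of which 7 were above 0.5, and 0.33 over 9 glucocorticoid-induced genes, of which 2 were.

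Other lists were set beside the 10 genes in the average of 5 comparisons, against the 28.5% of all genes called. Of 31 further p53 pathway genes tested, 2 rose and 6 fell, with a median log2 fold change of -0.03. *Rrm2b*, a subunit of the ribonucleotide reductase that supplies DNA repair, rose by 0.42 (SE 0.09, edgeR's adjusted p = 0.00113), from a median of 21.8 to one of 28.3 CPM. *Polk*, a translesion DNA polymerase, rose by 0.22 (SE 0.06). *Plk2*, a polo-like kinase that neuronal activity also induces, fell by 0.34 (SE 0.09), and *Aen*, an apoptosis-enhancing nuclease, by 0.23 (SE 0.08). The others that fell were *Xpc*, *Polh*, *Sesn2* and *Pidd1*. *Trp53* itself changed by -0.03 (SE 0.06, edgeR's adjusted p = 0.769), with medians of 13.6 CPM in controls and 14.4 CPM with SCFA.

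Among other inhibitors of cyclin-dependent kinases, 2 of 5 tested rose and none fell. *Cdkn1b*, which encodes p27, rose by 0.48 (SE 0.08, edgeR's adjusted p = 4.812e-05), from a median of 120.8 to one of 157.2 CPM, and *Cdkn2c*, which encodes p18, by 0.27 (SE 0.05, adjusted p = 0.0004). *Cdkn1b*, of the same Cip/Kip family as *Cdkn1a*, thus moved the other way. Of 16 cell division genes tested, *Ccne2* (0.34) and *Pcna* (0.15) rose and *Ccne1* fell by 0.40. *Mki67*, which marks dividing cells, had medians of 0.188 CPM in controls and 0.0562 CPM with SCFA and did not pass (adjusted p = 0.163).

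Immediate early genes fell with *Cdkn1a*. Of 22, 17 fell and 1 (*Ier3*) rose, with a median log2 fold change of -0.72. The list holds genes that the study itself named from these libraries, so its count is not independent evidence of a direction. *Egr1* fell by 1.73 (SE 0.20, edgeR's adjusted p = 1.738e-06), from a median of 105.2 to one of 29.2 CPM, *Nr4a1* by 1.24 (SE 0.14) and *Junb* by 0.84 (SE 0.12). Of 11 glucocorticoid-induced genes, 3 fell (*Per1*, *Cebpd* and *Fkbp5*) and none rose, with a median of -0.12. *Per1*, a clock gene, fell by 0.38 (SE 0.06).

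Cell type markers were summed as well and not tested. Summed ganglion cell markers had a median of 223.5 CPM in 19 control libraries (146.9 to 317.0) and of 190.1 CPM in 24 SCFA libraries (137.3 to 237.3). Medians in controls and with SCFA were 355.9 and 403.2 CPM for bipolar cell markers, 240.9 and 177.8 CPM for pigment epithelium and 70.1 and 56.6 CPM for red cells. In the first and the second run, the medians were 231.0 and 94.9 CPM for pigment epithelium and 72.2 and 34.95 CPM for red cells, and 8 of 24 SCFA libraries but 4 of 19 controls are of the second. Their part in the levels of *Cdkn1a* and the other targets was not tested. In whole retina, fewer cells of a type and less RNA per cell cannot be told apart, and neither can a change within the lesion be told from one across the retina.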

How the data were processed

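RNA from pools of 2 lasered retinas was sequenced in paired ends by Novogene. The authors deposited raw read counts per gene, without normalization, for 54532 genes in 43 libraries. The submitters' processing notes name the build mm10 and DESeq2. The aligner, counter, annotation and strand setting are not given in the sources used here, so that reads of overlapping genes on opposite strands cannot be told apart. GENCODE M21 (GRCm38) gave the symbols of 54495 identifiers, and 37 had no match.

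Groups were taken from the sample titles, because the treatment field of the labels reads control for every library, the SCFA libraries included. Counts were filtered by filterByExpr, scaled by TMM and tested by quasi-likelihood in edgeR 4.0.16 (R 4.3.3). The 43 libraries shared 1 fit, with the 12 groups and the run as terms, and p-values were adjusted by the Benjamini-Hochberg method across all 18197 genes. A call had an adjusted p under 0.1, the threshold of the study, without its minimum fold change, which was an alternative. A standard error is the log2 fold change divided by the square root of the F statistic, and 95% intervals are normal intervals from it. Deviations from group and run means were correlated in scipy 1.17.1, over genes with a mean of at least 1 CPM, with 100000 permutations within group and run. Marker sums are in CPM over all genes of the table. Not every marker list is reported here.

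The members, the gene lists, the run of columns as a covariate and the tests were chosen with earlier results of these data known. Genes named are the 10 members, the 8 genes whose deviations were most like those of *Cdkn1a*, up to 4 genes of each list with the smallest adjusted p in the averaged comparison, and *Trp53*. Genes named beside a count of 5 or fewer, and the further p53 pathway genes that fell, were named after their values were seen. The alternatives were DESeq2 1.42.0, RLE scaling, no filter on low counts, no covariate for the run, the first run alone, the libraries of the study's own comparisons, other thresholds, the replicate number as a block, a prior count of 0.5, and leaving out each library in turn. Leaving out the lens-rich library together with the one with Y-linked transcripts was added after the data had been seen. The fit was tested on simulated data, as were the correlations.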

Additional observations from a re-analysis of the deposited data

Results flagged for a closer look

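Within groups of 4 or 5 libraries, each of the 10 genes was checked for a library far from the others of its group, 50 checks in all, of which 4 stood out. By chance about 1 in 20 would. *Ccng1* in female SCFA 3 dpl replicate 2 was at 418.9 CPM, and in the other libraries of its group between 87.4 and 107.2 CPM. That library is the lens-rich one, with 145600 CPM of crystallins, and the part of lens tissue in its *Ccng1* was not tested. *Ccng1* in male control 3 dpl replicate 1 was at 72.8 CPM, below the 81.9 to 83.2 CPM of the others. *Bax* in female SCFA 14 dpl replicate 1 was at 37.8 CPM, above the 25.2 to 26.6 CPM of the others. *Trp53inp1* in female SCFA 7 dpl replicate 3 was at 41.4 CPM, above the 26.3 to 28.5 CPM of the others.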

How the results depend on the processing

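Among 869 values recomputed under the alternatives, no called value changed its direction. The averaged log2 fold change of *Cdkn1a* was -0.59 and passed under every alternative except a minimum log2 fold change of 1, which no averaged value of the 10 genes reached, so that 0 were called with that minimum in the average, in females at 3 dpl, in males at 7 dpl and between control sexes at 14 dpl. Without a covariate for the run, 3 genes passed in the average in place of 5, of all genes 3066 in place of 5190, and in females at 3 dpl 0 in place of 1. With the minimum fold, 119 of all genes passed in the average. Leaving out each library in turn gave 4 to 6 members and 4520 to 5517 genes in the average, 0 to 1 members in females at 3 dpl and between control sexes at 14 dpl, 1 to 3 in males at 7 dpl and 0 to 2 in females at 7 dpl. In females at 3 dpl, 2 members passed with DESeq2, in the first run alone and without the library with Y-linked transcripts, and 0 without it and the lens-rich library. Without a filter on low counts, 1 member passed in males at 3 dpl and 1 in females at 7 dpl, and 2 in the difference between the sexes at 3 dpl. DESeq2 called 1 in males at 3 dpl. Between control sexes, the libraries of the study's own comparisons gave 2 members at 7 dpl and 0 at 14 dpl, where the first run alone and an adjusted p under 0.05 also gave 0. The cause was not tested. Same-numbered SCFA and control libraries had a mean r of 0.023 over 18 pairs (from -0.276 to 0.255), and other pairs -0.007 over 57. No shared deviation by number was seen, which cannot show whether libraries were handled in pairs. With the replicate number as a block, 5 members passed in the average, 2 in females at 3 dpl and 0 between control sexes at 14 dpl. The r of *Bax* with *Cdkn1a*, 0.20, was -0.18 in the first run alone, and those of *Gadd45a*, *Gadd45b* and *Sesn1* also took both signs. Of all genes, the alternatives that left out no library in turn called 0 to 296 in males at 3 dpl (4 in the report), 91 to 3260 in females at 3 dpl (1476), 614 to 4799 in males at 7 dpl (4047), 0 to 938 in females at 7 dpl (117) and 0 to 2962 in females at 14 dpl (0), the last with the libraries of the study's own comparison. Counts of 23 to 97 for *Bbc3* limit what could be seen of that gene.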
